A study of Mus musculus with 9 samples.

Results

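Caveolin-1 was knocked down with a small interfering RNA (siRNA) in culture-activated mouse hepatic stellate cells, and the transcriptome was compared with that of cells given a negative control siRNA. The comparison rests on 6 of the 9 arrays of the series, 3 with the Cav1 siRNA and 3 with the control siRNA, taken by their titles. The other 3 arrays hold quiescent stellate cells, took no part in the fit and are quoted only as levels. Both groups were primary stellate cells of C57BL/6 mice aged 10 weeks, isolated by collagenase perfusion and grown for 7 days on hard plates before an overnight transfection at 5 nM, so the control cells were activated and transfected as well. The labels give neither the siRNA sequences nor the wait between transfection and RNA extraction. Whether separate animals, pools or dishes stand behind the 3 samples is not in the labels either, and p-values therefore measure only the spread between these samples, which may be technical.

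Hepatic stellate cells store retinoids in the healthy liver and turn into contractile, collagen-secreting myofibroblasts after injury or on a stiff surface. Caveolin-1 is the main coat protein of caveolae, small pits in the plasma membrane that are rich in cholesterol. It works there with caveolin-2, with the cavins that stabilise the coat, and with EHD ATPases and pacsins that shape the neck of the pit. Caveolae flatten when a membrane is stretched, and caveolin-1 is known to bind endothelial nitric oxide synthase and to take part in the uptake of several growth factor receptors.

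The knockdown was read by 2 array probes for Cav1, and the second probe of Tesc is shown with them because Tesc was among the most changed genes and both of its probes moved alike. Positions are on mm9, plus strand, and the sequences are those of the scanner files. In the first probe capitals mark the stop codon of the caveolin-1 reading frame, at probe bases 39 to 41. The second Cav1 probe maps over an interval that spans an intron and lies upstream of the first.
Cav1, chr6:17289414-17289473: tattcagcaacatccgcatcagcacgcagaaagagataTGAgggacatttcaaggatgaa
Cav1, chr6:17258018-17289144: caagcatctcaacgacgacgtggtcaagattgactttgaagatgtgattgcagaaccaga
Tesc, chr5:118511615-118511674: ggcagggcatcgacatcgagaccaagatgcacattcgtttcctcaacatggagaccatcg

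The 6 arrays measured 22724 genes above background in at least 1 group. Probes above background made up 61.9 to 69.0% on the control-siRNA arrays and 60.1 to 64.0% on the Cav1-siRNA arrays. Arrays of different groups correlated at 0.989 to 0.996 across genes, which are not independent replicates, and arrays within the control-siRNA group at 0.992 to 0.995. Smooth muscle actin (Acta2), collagen (Col1a1), Pdgfrb and Timp1 were above background on all 6 arrays. A signal above background cannot by itself tell activated from quiescent stellate cells, so it does not test the label of activated cells. The retinol acyltransferase gene Lrat, a marker of quiescent stellate cells, was not well above background on any of the 6, and desmin (Des) was above it on at most 2. Control-siRNA array 1 sat on a slide with the quiescent arrays, while the other 5 shared the second slide, so the slide moves with part of the control group.

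After the Cav1 siRNA 19 genes were called lower and 0 higher (limma, adjusted p under 0.05). That is 0.0836% of the genes tested in the lower direction and 0% in the higher one. Of the 19, 11 fell at least 2-fold, and Cav1, Tesc and Igfbp5, a binding protein of insulin-like growth factors, were among them. At an unadjusted p under 0.05 there were 2430 lower genes (10.7%) and 859 higher genes (3.78%). For 3267 genes (14.4%) each Cav1-siRNA array was dimmer than each control, and for 2046 each was brighter (9.0%). With array weights 54 genes were called higher, with a spread moderated by signal 7, and with quantile normalization 0. The count of 19 needed every array, since leaving out any 1 of the 6 left 0 calls, with a smallest adjusted p of 0.0845 without control-siRNA array 1 and of 0.151 to 0.179 without another array. All 19 genes kept a negative log2 change in each of the 22 alternative settings in which they were tested.

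The targeted transcript was lower on every Cav1-siRNA array. Cav1 log2 signals, given like all signals here relative to the 75th percentile of the array, were -1.34, -1.12 and -1.09 with the control siRNA and -2.88, -2.89 and -3.07 with the Cav1 siRNA. The groups are far apart against a spread of 0.14 and 0.11 (SD, n = 3 each). Cav1 fell to 29.4% of the control level (95% confidence interval 24.7 to 35.1%), a log2 change of -1.76 (SE 0.10, adjusted p = 0.0286), the smallest p of all genes. The intron-spanning probe gave -1.55, so both probes were lower. With normexp background correction and the same scaling the log2 change was -1.25, outside the main interval of -2.02 to -1.51. The depth of the knockdown thus varied with the handling of background. On the second slide alone the log2 change was -1.84 with an adjusted p of 0.0842. On the quiescent arrays the Cav1 probe read -4.87, -5.65 and -5.84 and was above background on 1 of 3, so the cells with the Cav1 siRNA still read brighter than quiescent cells.

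**Figure D1:**
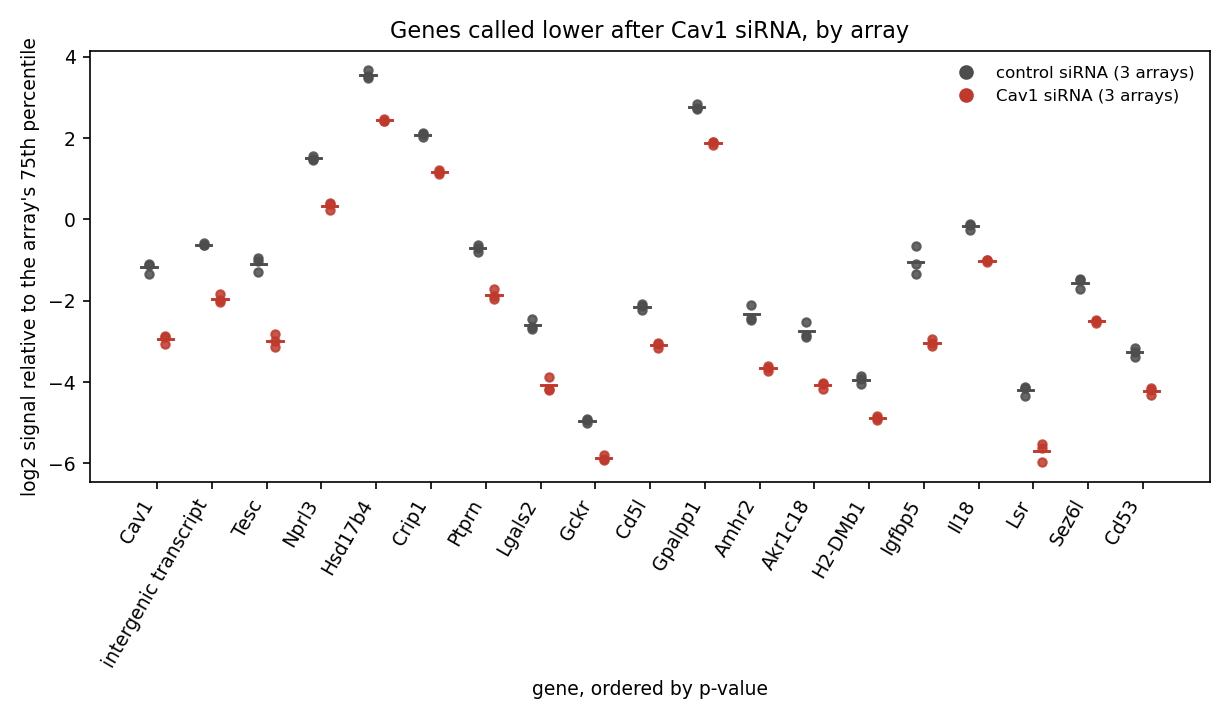
Log2 signal of each of the 19 called genes (vertical axis, relative to the 75th percentile of the array) on the 3 control-siRNA arrays (grey) and the 3 Cav1-siRNA arrays (red), with a bar at each group mean; genes are ordered by p-value along the horizontal axis. In every gene the 3 red points lie below the 3 grey points, with the widest gaps for Igfbp5 (log2 change -2.0), Tesc (-1.91) and Cav1 (-1.76).

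Among the 18 caveolar genes tested, Cav1 was the one called. The caveolin-2 gene Cav2, whose product joins caveolin-1 in the coat, read 2.35, 2.55 and 2.62 with the control siRNA and 2.83, 2.65 and 2.63 with the Cav1 siRNA. The groups do not overlap but lie next to each other, with a log2 change of +0.19 (95% confidence interval -0.06 to 0.45, adjusted p = 0.447). All 3 Cav2 probes gave positive values, from +0.19 to +0.45. Cav3, the caveolin of muscle, was dim, at -5.76, -6.05 and -5.78 against -7.13, -6.86 and -7.13, and exceeded background with the control siRNA only. Against the dimmest signal called above background on each array, it was at least 1.11-fold lower with the Cav1 siRNA (adjusted p = 0.0647). That p-value rests on signals below background in the Cav1-siRNA group. With normexp background correction and the same scaling the log2 change was -0.11 (adjusted p = 0.854), a smaller drop than that bound. The bound therefore applies to the main processing.

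None of the cavins was called. Cavin1, the core cavin of the coat, stood at a log2 change of -0.18 (SE 0.09, adjusted p = 0.414), Cavin2 at -0.03 (SE 0.14, adjusted p = 0.924) and Cavin3 at +0.15 (SE 0.08, adjusted p = 0.427). Cavin2 turned to +0.08 with median scaling and to +0.09 within the second slide. The ATPase gene Ehd2 of the caveolar neck (-0.07, SE 0.08) and the membrane-bending gene Pacsin2 (-0.16, SE 0.09) also had intervals that include 0. Of the 18 caveolar genes 7 lay below and 5 above all controls without overlap, beside 14.4% and 9.0% of all genes, and the median log2 change was -0.04 beside -0.03 over all genes tested.

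**Figure D2:**
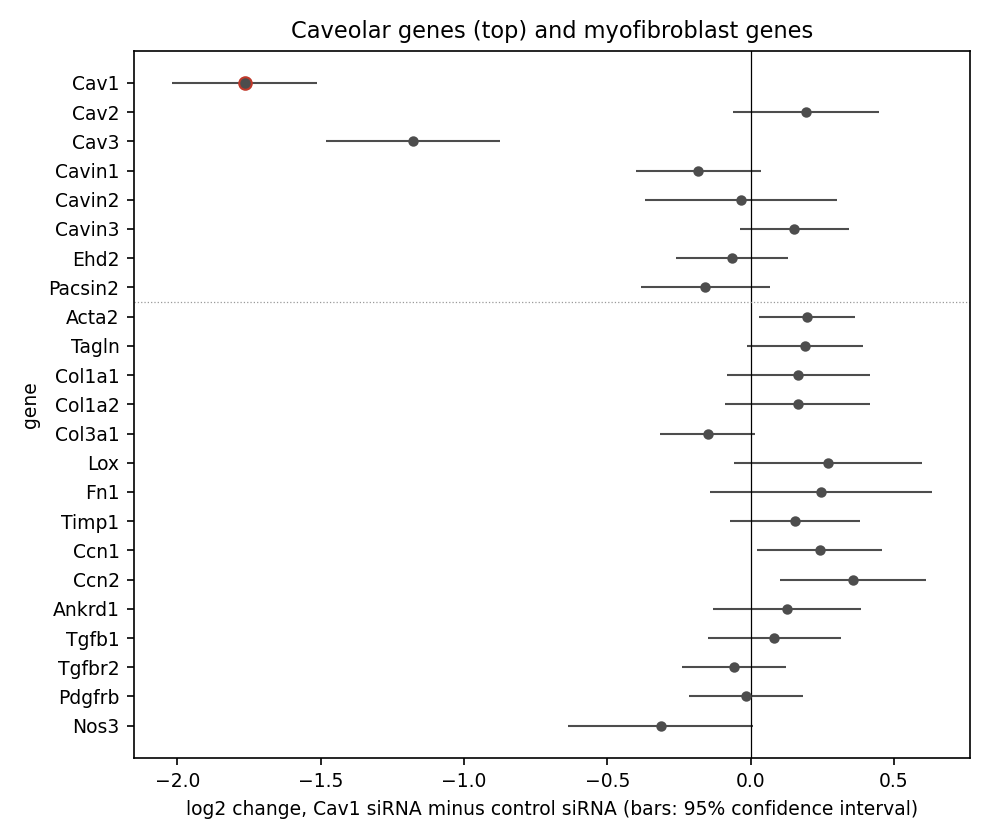
Log2 change after the Cav1 siRNA (horizontal axis) with its 95% confidence interval for 8 caveolar genes, above the dotted line, and 15 genes of myofibroblasts and their signalling, below it. Cav1 stands at -1.76, Cav3 at -1.18 rests on signals below background in the Cav1-siRNA group, and the 15 genes below the line lie between -0.31 (Nos3) and +0.36 (Ccn2).

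Besides Cav1, the largest called changes were those of Igfbp5 and Tesc. Tesc encodes tescalcin, a calcium-binding protein that regulates a sodium-proton exchanger. It read -0.96, -1.02 and -1.29 with the control siRNA and -2.83, -3.15 and -3.0 with the Cav1 siRNA. Tesc fell to 26.7% of the control level (95% confidence interval 21.5 to 33.1%, log2 change -1.91, SE 0.13, adjusted p = 0.0286). The probe printed above gave -2.06, and the quiescent arrays read brighter than both groups, at 0.94, 0.17 and 0.17.

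Igfbp5 is one of the binding proteins that carry insulin-like growth factors and is secreted by activated fibroblasts. Its single probe, at chr1:72904829-72904888 (mm9, minus strand), read -0.66, -1.11 and -1.35 with the control siRNA and -3.04, -2.95 and -3.12 with the Cav1 siRNA. The control arrays were the more scattered (SD 0.35 against 0.09), with control-siRNA array 1 the highest. The quiescent arrays read brighter than both groups, at 0.74, -0.09 and 0.33. Igfbp5 fell to 25.1% of the control level (95% confidence interval 18.5 to 34.0%, log2 change -2.0, SE 0.18, adjusted p = 0.0402), and within the second slide the value was -1.80 (adjusted p = 0.0842). A further pair of binding proteins of the family was lower on all 3 Cav1-siRNA arrays without being called, Igfbp6 at -0.70 (SE 0.08, adjusted p = 0.0706) and Igfbp3 at -0.45 (SE 0.15, adjusted p = 0.263). The ligand genes Igf1 (+0.03) and Igf2 (+0.17) and the receptor gene Igf1r (+0.09) had small positive values. Of the 19 genes of this axis 3 were lower and 0 higher at an unadjusted p under 0.05, beside 10.7% and 3.78% of all genes.

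Amhr2, the type II receptor of anti-Müllerian hormone in the TGF-beta superfamily, read -2.11, -2.43 and -2.46 with the control siRNA and -3.59, -3.66 and -3.74 with the Cav1 siRNA. It fell by 1.33 on the log2 scale (SE 0.12, adjusted p = 0.0382), and its second probe, lower as well, was above background on only 1 of the 3 Cav1-siRNA arrays. The remaining TGF-beta and BMP genes held no call, with 6 of 48 lower and 4 higher at an unadjusted p under 0.05, Amhr2 included among the lower ones, beside 10.7% and 3.78% of all genes. The receptor gene Tgfbr2 stood at -0.06 (SE 0.07) and the ligand gene Tgfb1 at +0.08 (SE 0.09). Bmp5, a BMP ligand below background with the Cav1 siRNA, was at least 1.47-fold lower in the main processing (adjusted p = 0.158). Over 20 alternatives the log2 change of Bmp5 ran from -0.95 to -0.13. The BMP antagonist gene Grem1 had +0.34 (SE 0.09, adjusted p = 0.184).

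Nprl3 encodes a subunit of GATOR1, the complex that holds back mTORC1 when amino acids are short. Its signals were 1.55, 1.49 and 1.46 with the control siRNA and 0.24, 0.37 and 0.40 with the Cav1 siRNA. The change of -1.16 (SE 0.08, adjusted p = 0.0286) was seen by all 3 probes, which gave -1.23 to -0.75. Its GATOR1 partners did not follow, with Nprl2 at +0.16 and Depdc5 at -0.13. The amino acid transporter gene Slc7a8 read -3.86, -3.92 and -3.19 against -5.61, -5.36 and -5.12. Its log2 change of -1.71 missed the threshold (SE 0.23, adjusted p = 0.0762) and shrank to -0.54 with normexp background correction (adjusted p = 0.22). Akt1s1, which encodes an mTORC1 inhibitor, had -0.75 (SE 0.14, adjusted p = 0.113).

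Hsd17b4, Akr1c18 and Gckr, described together here after their values were seen, act in metabolism. Hsd17b4, a peroxisomal enzyme of fatty acid oxidation, read 3.66, 3.52 and 3.48 with the control siRNA and 2.47, 2.42 and 2.42 with the Cav1 siRNA. It fell to 46.2% of the control level (log2 change -1.11, SE 0.08, adjusted p = 0.033), and its arrays within each group lay closer together than those of Cav1. Akr1c18, an aldo-keto reductase that inactivates progesterone, fell by 1.33 on the log2 scale (SE 0.12, adjusted p = 0.0382), from -2.53, -2.84 and -2.89 to -4.18, -4.03 and -4.04. Gckr, the glucokinase regulator of hepatocytes, fell by 0.92 (SE 0.08, adjusted p = 0.0382), but was above background on only 2 of the 3 Cav1-siRNA arrays, with a dim control signal between -5.02 and -4.92. Other fatty acid oxidation genes had smaller values, such as the regulator gene Ppara at -0.53 (SE 0.17, adjusted p = 0.243) and its coactivator gene Ppargc1a at -0.38 (SE 0.12, adjusted p = 0.243). The 30 genes of that list had a median of -0.02.

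Cd5l, H2-DMb1, Cd53, Il18 and Lgals2 are likewise set together after the calls were seen, and of them Cd5l and Il18 belong to a list. Cd5l, a protein secreted by macrophages, read -2.23, -2.08 and -2.14 with the control siRNA and -3.07, -3.17 and -3.03 with the Cav1 siRNA (log2 change -0.94, SE 0.08, adjusted p = 0.0382). Its signals on the quiescent arrays were 6.79, 5.94 and 6.27, so both activated groups held little of it. H2-DMb1, which loads peptides onto MHC class II, went from -4.05, -3.85 and -3.92 to -4.84, -4.93 and -4.88 (log2 change -0.94, SE 0.08, adjusted p = 0.0382). Its close paralog H2-DMb2 may not be separated by the probe. The leukocyte tetraspanin gene Cd53 fell by 0.95 (SE 0.09, adjusted p = 0.0494), from a range of -3.39 to -3.17 to one of -4.32 to -4.14. The cytokine gene Il18 fell by 0.84 (SE 0.08, adjusted p = 0.0402), from a control range of -0.27 to -0.12 to a range of -1.04 to -1.0. Lgals2, a galectin gene, fell by 1.48 (SE 0.12, adjusted p = 0.0382), from a range of -2.71 to -2.46 to one of -4.19 to -3.88.

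The last called genes encode membrane and scaffold proteins or belong to no named gene. Crip1, a small LIM-domain protein, read 2.14, 2.09 and 2.03 with the control siRNA and 1.11, 1.21 and 1.16 with the Cav1 siRNA (log2 change -0.92, SE 0.07, adjusted p = 0.0382). Ptprn, a phosphatase-like protein of secretory granules, fell by 1.15 (SE 0.09, adjusted p = 0.0382), with -0.86 from its second probe. Both Ptprn and Sez6l (-0.94, SE 0.09, adjusted p = 0.0494, with -0.93 from its second probe) were not well above background on any quiescent array. The third Sez6l probe was not well above background on any of the 3 Cav1-siRNA arrays and gives no fold. Lsr, a lipoprotein receptor that also builds tricellular junctions, fell by 1.5 (SE 0.14, adjusted p = 0.0463) and was above background on 2 of the 3 Cav1-siRNA arrays. Gpalpp1 fell by 0.89 (SE 0.08, adjusted p = 0.0382). With normexp background correction and the same scaling 10 of the 19 genes were still called. They include Cav1 at -1.25, Tesc at -1.43 and Igfbp5 at -1.37, each a smaller drop than in the main fit. Among the rest the log2 change there was -0.34 for Lsr, -0.17 for Gckr, -0.28 for H2-DMb1, -0.41 for Cd53, -0.53 for Cd5l, -0.75 for Lgals2, -0.74 for Amhr2 and -0.73 for Akr1c18, each smaller by over 1.5 times, and -0.69 for Sez6l. A probe for an intergenic transcript at chr14:21461716-21462270 (mm9, plus strand) had the second smallest p of all, with -0.64, -0.59 and -0.64 against -2.04, -1.84 and -1.99 (log2 change -1.33, SE 0.08, adjusted p = 0.0286).

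No gene was called higher, and those with the smallest p in that direction are listed as values. Taldo1, an enzyme of the pentose phosphate pathway, read 5.04, 4.95 and 4.93 with the control siRNA and 5.56, 5.53 and 5.49 with the Cav1 siRNA (log2 change +0.56, SE 0.07, adjusted p = 0.0762, and +0.63 by its second probe). The chemokine gene Ccl7 stood at +0.70 (SE 0.10, adjusted p = 0.0782), with 2.72 to 2.98 against 3.48 to 3.65. The galectin gene Lgals3 had +0.55 (SE 0.08, adjusted p = 0.0885) by one probe and +0.57 by the other, opposite in sign to Lgals2. Rgcc, a regulator of the cell cycle, stood at +0.92 (SE 0.13, adjusted p = 0.0782), the vasopressin receptor gene Avpr1a at +0.56 (SE 0.08, adjusted p = 0.0782) and the decoy receptor gene Tnfrsf22 at +0.62 (SE 0.08, adjusted p = 0.0762). The matrix protease gene Adamts12 had +0.79 (SE 0.13, adjusted p = 0.0929) and the pentraxin gene Ptx3 +0.54 (SE 0.09, adjusted p = 0.0923). By the probe that stands for the gene, the 3 Cav1-siRNA arrays lay above the 3 controls in each of them. A second, dimmer probe of Adamts12 gave -0.36 and that of Tnfrsf22 +0.30, both with overlapping groups. Without overlap and with at least a 2-fold change there were 168 lower genes and 13 higher ones.

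No defining gene of the myofibroblast was called. Acta2, the usual marker of activation, read 7.47, 7.39 and 7.40 with the control siRNA and 7.62, 7.61 and 7.63 with the Cav1 siRNA. The groups do not overlap, yet the change was small, at +0.20 (95% confidence interval 0.03 to 0.36, adjusted p = 0.278), with all 4 probes positive from +0.20 to +1.05, the highest from a probe above background on 2 of the 3 control arrays. Tagln, an actin-binding protein, had +0.19 (SE 0.08, adjusted p = 0.369). Col1a1 read 6.76, 6.97 and 6.93 against 7.16, 6.91 and 7.09, groups that overlap, and its change was +0.17 (95% confidence interval -0.08 to 0.42, adjusted p = 0.493), while its other probes gave +0.29 and -0.16. Col3a1 had -0.15 (95% confidence interval -0.32 to 0.02, adjusted p = 0.385). For these genes the intervals leave out a 2-fold change in either direction.

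Crosslinking, matrix and receptor genes of the myofibroblast gave values of similar size. The crosslinker gene Lox stood at +0.27 (SE 0.14), the fibronectin gene Fn1 at +0.25 (SE 0.16), with its probes split between -0.22 and +0.30, and the protease inhibitor gene Timp1 at +0.16 (SE 0.09). The PDGF receptor gene Pdgfrb was at -0.02 (SE 0.08), and it turned to +0.10 with median scaling. The matricellular genes Ccn2 (+0.36, SE 0.11, adjusted p = 0.228) and Ccn1 (+0.24, SE 0.09, adjusted p = 0.304) were higher on all 3 Cav1-siRNA arrays. Nos3, the endothelial nitric oxide synthase gene, had overlapping groups and a log2 change of -0.31 (SE 0.13, adjusted p = 0.356). With 3 arrays against 3, a miss of the threshold does not show that the levels were equal.

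Of 29 collagen genes tested none was called. At an unadjusted p under 0.05 there were 5 lower and 2 higher, beside 10.7% and 3.78% of all genes. Col6a1, a chain of the microfibrillar type VI collagen, read 6.85, 6.75 and 6.70 against 6.12, 6.38 and 6.34 (log2 change -0.48, SE 0.10, adjusted p = 0.133), and its partner Col6a2 had -0.33, while Col6a3 was at -0.03. Col11a1, a minor fibrillar chain, had +0.47 (SE 0.08, adjusted p = 0.0977). The list's median was -0.07. Among matrix genes outside the collagens Timp2 stood at -0.35 (SE 0.07, adjusted p = 0.148), Loxl2 at -0.37 (SE 0.09, adjusted p = 0.164), the thrombospondin gene Thbs1 at +0.40 (SE 0.08, adjusted p = 0.132) and the hyaluronan synthase gene Has2 at +0.51 (SE 0.10, adjusted p = 0.139). The second Timp2 probe gave +0.01 with overlapping groups, while those of Loxl2 (-0.56) and Thbs1 (+0.31) kept the sign.

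Cholesterol synthesis genes were on balance higher, without a call. Of 26 tested, 13 (50%) lay above all controls and 1 below, beside 9.0% and 14.4% of all genes, and 10 were higher at an unadjusted p under 0.05, beside 3.78%. Cyp51, which demethylates lanosterol, read 2.39, 2.48 and 2.43 against 2.71, 2.72 and 2.75 (log2 change +0.29, SE 0.07, adjusted p = 0.162). Among other enzymes of the later pathway Hsd17b7 had +0.36 (SE 0.10, adjusted p = 0.193), Nsdhl +0.49, Lss +0.30 and Sqle +0.22. Tm7sf2 (-0.34), Sc5d (-0.10) and Dhcr7 (-0.002), also of the later pathway, were not higher. Of earlier enzymes Mvd had +0.30, Idi1 +0.27 and Hmgcs1 +0.05, so the values do not split by step. The SREBP retention gene Insig1 had +0.33. The median was +0.18, and it ran from +0.17 to +0.29 over 19 alternative settings, above the median of all genes in each. Within the second slide 17 of the 26 lay above the controls, beside 16.4% of all genes there.

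Genes of the cytoskeleton and adhesion had small positive medians. The contractile list stood at +0.14, with 11 of 29 above all controls and 1 below, beside 9.0% and 14.4% of all genes in this and the next lists, and the actin genes Actg2 (+0.34, SE 0.07), Actg1 (+0.27, SE 0.08) and Acta1 (+0.72, SE 0.21) among them. The integrin and focal adhesion list had a median of +0.09 and 13 of 31 above. Itgb5, an integrin beta chain, had +0.37 (SE 0.07, adjusted p = 0.127), whereas Itgb3 had -0.46 (SE 0.12, adjusted p = 0.191). The targets of YAP, TAZ and SRF, factors that respond to tension, had a median of +0.12 with 12 of 32 above, the list that holds Ccn2. In each of these 3 lists the median lay above that of all genes in all 19 alternatives, from +0.05 to +0.25 over the lists. Ribosomal protein genes, with 42 of 45 values positive, +0.13 in the middle and 0 at an unadjusted p under 0.05, had a median of the same size.

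**Figure D3:**
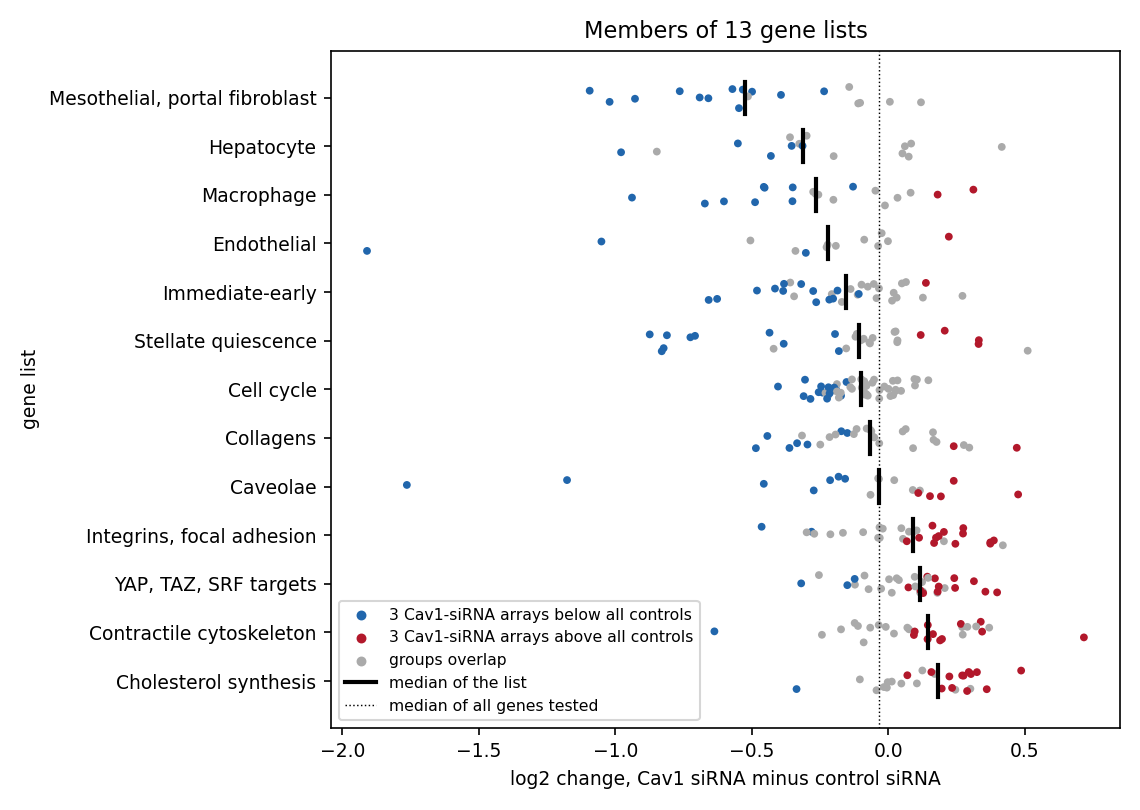
Log2 change (horizontal axis) of each tested member of 13 gene lists, coloured by whether the 3 Cav1-siRNA arrays lay below all 3 controls (blue), above them (red) or overlapped (grey), with a black bar at the median of each list and a dotted line at the median of all genes tested (-0.03). Mesothelial and portal fibroblast markers sit farthest to the left (median -0.52) and cholesterol synthesis genes farthest to the right (+0.18).

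Markers of other liver cells leaned towards lower values. Mesothelial cells cover the liver and portal fibroblasts surround the bile ducts, and both can grow beside stellate cells. Of 18 of their markers tested, 12 (66.7%) lay below all controls and 0 above, beside 14.4% and 9.0% of all genes, and 11 were lower at an unadjusted p under 0.05, beside 10.7%. Their median was -0.52, from -0.57 to -0.22 over the 19 alternatives. Muc16, the mesothelial mucin gene, read -2.80, -2.77 and -3.06 against -3.98, -3.72 and -4.22 (log2 change -1.09, SE 0.15, adjusted p = 0.0779). Gli1, a Hedgehog factor of portal fibroblasts, had -0.93 (SE 0.10, adjusted p = 0.0693), Pi16 -0.69 (SE 0.09, adjusted p = 0.0762), Lrrn4 -1.02 and Msln -0.39, whereas Wt1 was at -0.11 and Fbln2 at +0.01. The summed linear level of the list overlapped, at 237.0 to 251.1 against 236.6 to 250.3 times the 75th percentile. That sum is mostly Fbln2 and Cd34, the brightest members, with mean control log2 signals of 7.00 and 6.22. Cd34 stood at +0.12 and Fbln2 hardly differed, so the sum says little of the dimmer markers. Within the second slide 13 of 20 lay below the controls, beside 20.4% of all genes there, with a median of -0.40.

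Macrophage markers showed 9 of 19 below all controls and 2 above, beside 14.4% and 9.0% of all genes, with a median of -0.27. Tyrobp, an adaptor of myeloid receptors, read -0.37, -0.39 and -0.36 against -1.15, -0.90 and -1.08 (log2 change -0.67, SE 0.09, adjusted p = 0.0762). Adgre1, which encodes the F4/80 antigen, had -0.60 (SE 0.11, adjusted p = 0.111). The 2 markers above all controls were Fcgr3 (+0.31) and Cd14 (+0.18), while Cd68 (-0.05), Laptm5 (+0.03) and Marco (-0.01) hardly differed. The summed level was 53 to 61.3 with the control siRNA and 48.1 to 52.0 with the Cav1 siRNA, and without Itgam, the member that moved it most, 38.1 to 42.3 against 34.8 to 37.1. The Kupffer cell genes Clec4f and Vsig4 were not well above background on any of the 6 arrays. The values of the list move with the calls of Cd5l, Cd53 and H2-DMb1, and their part in those calls was not tested. Cd5l is itself among the 19 markers and is counted in these values. In bulk RNA fewer cells of a type and less RNA per cell cannot be told apart.

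Hepatocyte markers had 5 of 15 below and 0 above (median -0.31), beside 14.4% and 9.0% of all genes. Over the 19 alternatives that median ran from -0.32 to -0.02. The dimmest of 4 equal bins by signal itself had a median of -0.19, with 17.2% below and 3.56% above. Their summed level of 17.4 to 21.7 against 15.9 to 17.0 was set by Ass1, an enzyme of the urea cycle that other cells express too, and without it the sums overlapped, at 2.35 to 2.54 against 2.32 to 2.40. Another 15 of the 30 hepatocyte genes were too dim to test, 9 of them not well above background on any array, and albumin (Alb) was above it on at most 1. Endothelial markers had 3 of 13 below and 1 above (median -0.22, from -0.27 to -0.03 over the 19 alternatives). Beside them stand the same shares of all genes and of the dimmest bin. Their summed level was 3.79 to 4.16 against 2.35 to 2.73, a difference carried by Egfl7, since without it the sums overlapped at 1.22 to 1.31 against 1.15 to 1.24. Egfl7, an endothelial secreted factor, read 1.49, 1.56 and 1.33 against 0.63, 0.16 and 0.44 (log2 change -1.05, SE 0.14, adjusted p = 0.0762). The guidance receptor gene Robo4, below background with the Cav1 siRNA, was at least 1.38-fold lower in the main processing (adjusted p = 0.118). Over 20 alternatives the log2 change of Robo4 ran from -2.29 to -0.17. Kdr, at +0.22, was the 1 marker above all controls, while Vwf (-0.04), Eng (-0.02), Oit3 (-0.001) and Ptprb (-0.09) hardly differed. Cdh5, the defining cadherin of endothelium, was not well above background on any of the 6 arrays. The hepatocyte values stand beside the call of Gckr and their part in it was not tested.

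Cell cycle and early response genes also leaned lower. Among 50 cell cycle genes 14 lay below all controls and 0 above, beside 14.4% and 9.0% of all genes, with a median of -0.10. Bub1b of the spindle checkpoint had -0.28 (SE 0.08, adjusted p = 0.2), the cyclin genes Ccnb1 -0.31 (SE 0.10, adjusted p = 0.255) and Ccnd1 -0.30, while Mki67 was at +0.02 and Cdk1 at +0.10. The other Ccnb1 probes did not follow, at -0.006, +0.028 and +0.104 with overlapping groups. Immediate-early genes, which respond to growth factors and handling within minutes, had 13 of 32 below and 1 above, beside the same shares, with a median of -0.15. Dusp1, a phosphatase of MAP kinases, read 1.30, 1.1 and 1.24 against 0.67, 0.75 and 0.78 (log2 change -0.48, SE 0.08, adjusted p = 0.103), Egr3 had -0.66 (SE 0.14) and Nr4a1 -0.63 (SE 0.14), whereas Fos (+0.03), Jun (-0.04) and Myc (-0.05) hardly differed. In both lists the median lay below that of all genes in all 19 alternatives.

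Retinoid and quiescence genes had 10 of 28 below and 4 above, beside 14.4% and 9.0% of all genes, with a median of -0.11. Rarres2, the chemerin gene, read -2.96, -2.92 and -2.98 against -3.57, -3.60 and -3.81 (log2 change -0.71, SE 0.09, adjusted p = 0.0762), and Angptl6 had -0.82 (SE 0.14, adjusted p = 0.0923). The nuclear receptor gene Pparg of lipid-storing cells was at +0.03. Vasoactive genes had 6 of 21 lower and 2 higher at an unadjusted p under 0.05 (median -0.12), beside 10.7% and 3.78% of all genes, among them the nitric oxide receptor subunit gene Gucy1a1 (-0.76, SE 0.11, adjusted p = 0.0782) and the endothelin-converting enzyme gene Ece1 (-0.62, SE 0.09, adjusted p = 0.0844). Interferon response genes, which a double-stranded RNA can induce, had 1 of 47 below and 0 above, beside 14.4% and 9.0%, with a median of -0.08. Mx1, at +1.07 (SE 0.38, adjusted p = 0.283), had overlapping groups.

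The lean towards lower values grew as signals dimmed. With genes ranked by signal into 4 equal bins, the median log2 change of the dimmest bin was -0.19, with 17.2% below all controls and 3.56% above. In the brightest bin it was +0.02, with 9.28% and 13.4%. Of the 19 called genes 4 lay in the dimmest bin and 10 in the next. Above background on all 3 control-siRNA arrays and on none of the Cav1-siRNA arrays were 104 genes, and the reverse held for 8. Scaling to the median in place of the 75th percentile moved the median of all genes from -0.03 to +0.08, left 2 calls, Cav1 and Tesc, and turned the unadjusted split to 1363 lower and 1874 higher. Lists are therefore read here against all genes and not against 0. The part of the share of probes above background, which was lower on average with the Cav1 siRNA, in this lean was not tested.

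**Figure D4:**
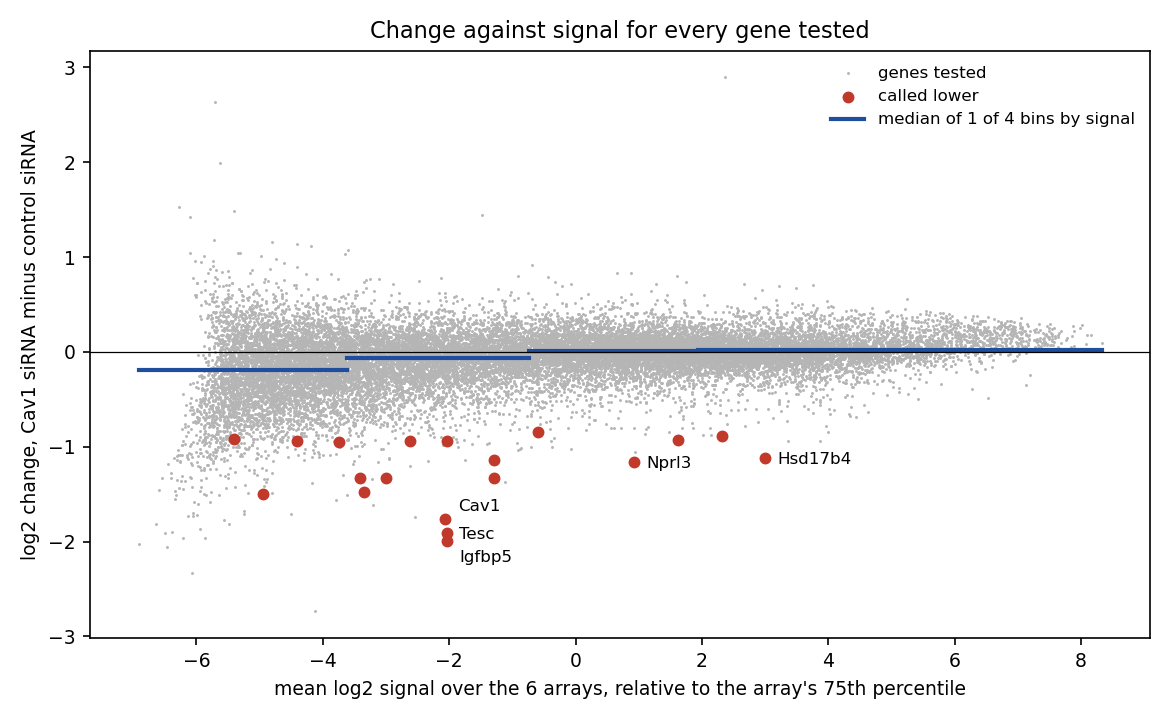
Log2 change after the Cav1 siRNA (vertical axis) against the mean log2 signal over the 6 arrays (horizontal axis) for the 22724 genes tested, with the 19 called genes in red and a blue line at the median of each of 4 bins of genes by signal. The blue line rises from -0.19 in the dimmest bin to +0.02 in the brightest, and the scatter of single genes narrows as signal grows.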

How the data were processed

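Expression was measured on 1-colour Agilent arrays, 1 per sample. Per the submitters' processing notes, spots were quantified in Agilent Feature Extraction (version 10.7.1.1). The deposited processed signal is a spot intensity on a linear scale after background subtraction and detrending, per the file headers, which record no step that scales arrays to each other. Deposited flags for outlier, saturated and background spots were also read. Of 62976 spots 59305 were not controls, for 56605 probes. No spot was saturated, and no array copied another.

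Log2 intensities had the 75th percentile of their array subtracted. Filtering asked for a share of at least 0.5 of the spots of a probe being flagged above background, on each of the 3 arrays of a group, which left 34918 probes less 13 lost to outlier spots. The probe with the highest mean stood for its gene. The file headers place probes on mm9, and no annotation of that build was used, so exons are not given. For 33881 probes the symbol came from a RefSeq accession in a table of GRCm38.p6, for a further 490 from a synonym, and 16402 of the 22724 genes had a symbol found there.

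Only the 6 arrays were fitted, with lmFit and eBayes of limma (version 3.58.1, R 4.3.3, 2-sided), Benjamini-Hochberg adjustment over all genes and calls at an adjusted p under 0.05. The prior had 2.18 degrees of freedom, 6.18 in all. Arrays have no counts, and their number, 3 a group, limits the precision. The 41 lists (1274 genes, 1132 tested) and the panel of named genes were chosen with earlier results of these data known, so their counts are descriptions. Genes named were the panel, the called genes, the smallest p and the largest changes in each direction, up to 3 members of each list by p, and genes above background in 1 group alone. Other list members are quoted as examples, and 1 gene of the panel is not reported here. The fit was tested on simulated data. Plots used matplotlib 3.10.9 under Python 3.11.15.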

Additional observations from a re-analysis of the deposited data

How the results depend on the processing

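The counts of calls moved with most settings. Beside 19 calls, 11 of them at least 2-fold, there were 2 (2) with median scaling, 9 (7) with quantile normalization, 22 (7) with normexp and the 75th percentile, 68 (7) with normexp and quantile normalization, 14 (7) with the mean of the kept probes, 24 (16) with every kept probe on its own, 365 (51) with array weights and 108 (19) with a trended, robust prior. There were 0 (0) without the filter on dim probes, with the slide as a block, with all 9 arrays, with the plain test without moderation, and, from 0 to 0, without 1 array. Asking for all 6 arrays above background gave 20 (10), the deposited values gave 16 (10), and normexp with that filter, chosen after seeing the data, gave 22 (7). Of the 19 genes 10 were kept with normexp and the 75th percentile.

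Cav1 was called in 11 of 22 alternatives, with log2 changes from -1.88 to -1.23 over all of them. Its log2 change missed the threshold at -1.76 without the filter, -1.84 with the slide as a block, -1.76 with all 9 arrays and -1.76 with the plain test, and ran from -1.84 to -1.70 without 1 array. Replicate numbers were not used to pair the samples, since no label says that a number marks a shared animal or culture. Deviations of same-numbered arrays correlated at -0.14, -0.05 and 0.24, and those of other pairs at -0.34 to 0.34. With 3 arrays a group these correlations cannot decide whether samples were paired. With the replicate block there were 0 calls and Cav1 stood at -1.76 (adjusted p = 0.203).

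Signs reversed, far from the threshold, for Cavin2 (0.077), Ehd2 (0.046), Tgfbr2 (0.053) and Pdgfrb (0.095) with median scaling, 5033421B08Rik (-0.34) with quantile normalization, and Tgfbr2 (0.012) and Pdgfrb (0.018) with normexp and the 75th percentile under both filters. They also reversed for Col1a2 (-0.014), Kctd4 (-0.18) and Fas (-0.22) with the mean of probes, Cavin2 (0.089) and Pdgfrb (0.035) with the slide as a block, Pdgfrb (0.036) with array weights, and 5033421B08Rik (-0.45) and Kctd4 (-1.19) with all 9 arrays. Without 1 array the values ran from -0.117 to 0.089 for Cavin2, -0.066 to 0.035 for Pdgfrb, -0.52 to 1.15 for 5033421B08Rik and -1.10 to 0.98 for Kctd4. The second probes of 5033421B08Rik (-0.45) and Kctd4 (-1.19) gave the same values as the fit with all 9 arrays, where probes were chosen anew. Other Fas probes gave -0.70 and -0.33, against +0.35 for the probe that stands for the gene. Causes of the remaining reversals were not tested.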

Other observations

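These values were singled out after they were seen. The called intergenic transcript on chromosome 14 has a neighbour on the array, a probe for chr14:21462770-21463270 (mm9), which read -3.01, -2.90 and -2.34 with the control siRNA and -4.27, -7.15 and -5.03 with the Cav1 siRNA. It was above background on 2 of the 3 Cav1-siRNA arrays, with a log2 change of -2.73 (SE 0.72, adjusted p = 0.193). The 2 probes lie on the same strand and were both lower on all 3 Cav1-siRNA arrays.

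Folr2, Csf2rb and Cx3cr1 are in none of the lists and were not called. Folr2, a folate receptor of resident macrophages, read -1.18, -1.35 and -1.02 against -2.28, -2.19 and -2.49 (log2 change -1.14, SE 0.12, adjusted p = 0.0693). The cytokine receptor gene Csf2rb had -1.01 (SE 0.17, adjusted p = 0.0998). The chemokine receptor gene Cx3cr1 exceeded background with the control siRNA only, which bounds its drop in the main processing as at least 2.16-fold (adjusted p = 0.101).

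The largest positive value on the arrays came mostly from 1 array. Actr2, an actin-branching subunit gene, read 3.32, 3.58 and -4.14 with the control siRNA and 3.89, 3.80 and 3.75 with the Cav1 siRNA. Most of its log2 change of +2.90 (SE 2.04, adjusted p = 0.536) came from control-siRNA array 3. The other control arrays also read below all Cav1-siRNA arrays, though by far less. Npm3, a histone chaperone gene, read -3.21, -1.91 and -1.50 against -0.86, -0.85 and -0.57 (log2 change +1.45, SE 0.43, adjusted p = 0.229), with control-siRNA array 1 the lowest.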
